A study of Mus musculus with 15 samples.

Results

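The 9 genes described here encode the receptor chains through which T cells sense IL-6, IL-27, IL-1, IL-23 and IL-12: Il6ra, Il6st, Il27ra, Il1r1, Il1r2, Il1rap, Il23r, Il12rb1 and Il12rb2. They were the rows, of 55421 Ensembl gene IDs in a table of TPM values (transcript abundance corrected for length and scaled to a fixed total), whose ID maps to one of these symbols. Each symbol belonged to 1 ID. The libraries were poly(A) RNA-seq of mouse CD4 T cells in 5 groups of 3. Naive cells sorted from spleen and lymph node were stimulated through CD3 and CD28, with antibodies against IFNγ and IL-4 in every culture, and RNA was taken on day 5. TH17 cultures received TGFβ at 2.5 ng/ml with IL-6, IL-1β and IL-23 at 10 ng/ml each, so each of these 3 cytokines was in the TH17 medium while its receptor was measured. Treg cultures received IL-2 at 200 U/ml and TGFβ, for which the labels give 0.5 ng/ml or another dose that they do not name. The wild-type groups were TH17 with DMSO, TH17 with Srci1, Treg with DMSO and Treg with Srci1. The fifth group was TH17 with DMSO from STAT3-fl/fl CD4-cre mice, in which a Cre driven by Cd4 deletes Stat3 in T cells. Srci1 is known here only by that name and went into the cultures 24 h after plating. Its concentration is not given in the sources used here. The labels do not say whether the wild-type mice carried the Cre or the floxed alleles, nor whether replicates came from separate mice or cultures. If they did not, the spread behind the p-values may be technical only.

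As background, IL-6 binds its own chain, encoded by Il6ra, and the complex signals through gp130, encoded by Il6st, which activates JAK kinases and the transcription factor STAT3. gp130 also pairs with the IL-27 receptor chain Il27ra. IL-1 signals through Il1r1 with the accessory chain Il1rap, whereas Il1r2 is a decoy that binds IL-1 and does not signal. The IL-23 receptor is Il23r paired with Il12rb1, and the IL-12 receptor is Il12rb2 paired with the same Il12rb1. IL-6, IL-1 and IL-23 are the classic cytokines of TH17 differentiation, and IL-12 is that of TH1 cells.

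Stat3 itself was at 33.53, 38.44 and 30.74 TPM in the knockout libraries and at 99.78 to 132.94 TPM in the TH17 DMSO libraries (adjusted p = 3.75e-09), so the label and the transcript go the same way although a remainder was measured. The T cell markers Cd3e, Cd4, Trac and Cd28 summed to 997 to 1412 TPM in every library. The TH17 marker Il17a was at 1337.9 ± 51.5 TPM in TH17 DMSO (mean ± SD, n = 3, as throughout), 40.4 ± 3.31 with Srci1 and 10.2 ± 1.45 in the knockout. Its means were at most 0.14 TPM in the Treg groups. The Treg marker Foxp3 was at 11.7 ± 2.15 TPM in TH17 DMSO and at 130 ± 2.23 in Treg DMSO, but also at 204 ± 8.37 in TH17 with Srci1 and at 205 ± 17.6 in the knockout. The whole Treg list (Foxp3, Il2ra, Ikzf2, Ctla4) summed to 931 to 1259 TPM in TH17 DMSO, 1729 to 1918 in TH17 Srci1, 730 to 890 in the knockout, 1178 to 1187 in Treg DMSO and 1530 to 1623 in Treg Srci1. Dendritic cell markers summed to at most 3.01 TPM and markers of CD8 T and NK cells to at most 14.8 TPM. The stromal and epithelial list reached 111 to 130 TPM in the knockout and at most 83.3 TPM elsewhere, of which Pecam1 made up 88.6 and Epcam 32.1 TPM in the knockout, with Col1a1 and Pdgfrb at 0.2 TPM or less. The labels TH17 and Treg are therefore used as names of culture conditions. Within-group correlations over genes ran from 0.977 to 0.986, above the 0.902 to 0.970 between groups. TH17 DMSO replicate 3 stood apart within its group: it was the lowest of the 3 libraries for 9 of 9 receptor genes, its longest genes (exons of at least 5487 bases in all) had a median difference of -0.37 on the log2 scale from the other 2 libraries, and ribosomal protein genes took 30.4% of its TPM against 26.5% and 28.1%. Results that change without it are given both ways. Ribosomal protein genes took 21.5 to 22.7% in TH17 Srci1, 27.4 to 29.7% in the knockout, 24.9 to 25.2% in Treg DMSO and 20.3 to 21.3% in Treg Srci1, so this share moves with the groups. A rescaling without these genes and the mitochondrial genes kept the number of receptor genes called in each direction within 1 in all 6 comparisons. TPM keeps no read depth, so counting error is unknown. In bulk RNA, fewer cells that express a gene and less RNA per cell cannot be told apart.

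A gene is called higher or lower at an adjusted p under 0.05 in limma on log2(TPM + 1), over 12800 tested genes, those that reached 1 TPM in 3 or more libraries. All 9 receptor genes passed that filter. Il1r1 and Il23r passed it on 6 libraries, those of TH17 DMSO and TH17 Srci1, so they could enter the tests only through the groups where they are high. Fold differences are ratios of mean TPM, and log2 differences are on the log2(TPM + 1) scale, which understates low genes.

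The start regions of 2 of the genes are shown because they hold a match to the motif bound by STAT factors, which act downstream of several of these receptors. The sequences are the 250 bases before the RefSeq start on GRCm38.p6, read 5′ to 3′ on the gene's strand, with matches in capitals. Of the motifs searched on both strands, TTCNNNGAA (STAT) and TGANTCA (AP-1) are given, and a further one is not reported here.
Il12rb2 (chr6:67376189-67376438, minus strand): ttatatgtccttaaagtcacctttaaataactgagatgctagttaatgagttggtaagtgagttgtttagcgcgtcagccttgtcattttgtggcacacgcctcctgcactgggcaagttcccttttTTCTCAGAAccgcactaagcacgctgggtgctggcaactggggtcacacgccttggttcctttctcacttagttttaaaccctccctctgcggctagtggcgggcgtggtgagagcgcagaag
Il1r2 (chr1:40085843-40086092, plus strand): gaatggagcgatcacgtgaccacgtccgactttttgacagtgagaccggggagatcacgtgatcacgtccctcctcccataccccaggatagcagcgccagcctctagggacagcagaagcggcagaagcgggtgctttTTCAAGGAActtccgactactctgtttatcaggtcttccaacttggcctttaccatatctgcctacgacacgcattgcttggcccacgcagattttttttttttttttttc

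Counted to the first base of the match, the capitals mark a STAT match at -111 from the RefSeq start in Il1r2 and at -123 in Il12rb2. For Il1r2 that RefSeq start lies inside the GENCODE gene span given below, which begins at 40074079. Windows of 300 bases, which also hold the first 50 bases after the start, were searched for the 7 of 9 genes that matched the RefSeq table. Il6ra, Il6st, Il1rap, Il23r and both windows of Il1r1 held no match to either of these 2 motifs. Among all 32851 windows of that length, 8.3% held the STAT motif and 7.81% the AP-1 motif. No binding was measured here, and a match describes letters only.

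The genes of the 2 IL-6 receptor chains, Il6ra and Il6st, rose with Srci1 in both culture conditions. Il6ra (chromosome 3, 89864059 to 89913196, minus strand, GRCm38) was at 25.89, 24.44 and 14.74 TPM in TH17 DMSO and at 45.85, 43.31 and 43.9 TPM in TH17 Srci1. In Treg DMSO it was at 18.75, 16.14 and 16.32 TPM, and in Treg Srci1 at 34.05, 34.25 and 40.9 TPM. Every Srci1 library lay above every DMSO library. The means were 2.04-fold higher with Srci1 in TH17 cells (log2 difference 1.04, adjusted p = 0.000691) and 2.13-fold higher in Treg cells (1.05, adjusted p = 0.000996). The difference between these 2 effects was -0.01 (95% interval -0.58 to 0.56, adjusted p = 0.991). In the knockout, Il6ra was at 15.61, 23.87 and 16.58 TPM and overlapped the TH17 DMSO libraries (log2 difference -0.19, adjusted p = 0.426). Without TH17 DMSO replicate 3 that difference was -0.43 (adjusted p = 0.0286), and the one of Treg from TH17 in DMSO went from -0.29 (adjusted p = 0.223) to -0.54 (adjusted p = 0.0119). With array weights the knockout difference was -0.41 (adjusted p = 0.0481). The Treg difference also passed the test under median-of-ratios scaling (-0.50, adjusted p = 0.0121), quantile normalization (-0.53, adjusted p = 0.00606) and array weights (-0.44, adjusted p = 0.0222). Ordered by mean, TH17 Srci1 and Treg Srci1 stood above the other 3 groups. Their own difference did not pass the test (adjusted p = 0.262), although their libraries did not overlap. It passed with only these groups fitted (-0.28, adjusted p = 0.0391). Neighbours among the other 3 groups did not pass the test either (adjusted p = 0.426 and 0.695).

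Il6st, the gene of the shared signalling chain gp130 (chromosome 13, 112464070 to 112510086, plus strand), was lowest in TH17 DMSO. In TH17 DMSO it was at 7.28, 7.21 and 3.37 TPM. It was at 25.06, 23.68 and 22.92 TPM in TH17 Srci1 and at 17.6, 23.71 and 16.98 TPM in the knockout. All 6 of these libraries were above all 3 TH17 DMSO libraries. Il6st was 4.01-fold higher with Srci1 (log2 difference 1.90, adjusted p = 9.42e-06) and 3.26-fold higher in the knockout (1.60, adjusted p = 1.49e-05), 2 comparisons that share the TH17 DMSO libraries. The Srci1 and knockout libraries differed by 0.30 (95% interval -0.13 to 0.73, adjusted p = 0.237), or by 0.34 with array weights (adjusted p = 0.045). The Treg DMSO values of 11.22, 9.99 and 10.8 TPM were above TH17 DMSO (1.79-fold, adjusted p = 0.00517), a call lost when only these 2 groups were fitted (adjusted p = 0.0565). Treg Srci1 was at 17.07, 18.77 and 19.14 TPM, 1.72-fold above Treg DMSO (adjusted p = 0.0164), and this call was lost without Treg DMSO replicate 2 (adjusted p = 0.0556) or Treg Srci1 replicate 3 (adjusted p = 0.0533). The Srci1 effect on Il6st was larger in TH17 than in Treg cells by 1.17 (log2, adjusted p = 0.0146). Il6st is also long, with 11099 exonic bases, and its lowest value was in the library whose long genes were low. Without that library the Srci1 and knockout differences remained called, at 1.59 and 1.29.

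Il27ra, the chain that joins gp130 in the IL-27 receptor (chromosome 8, 84030294 to 84042589, minus strand), varied least of the IL-6 family genes. It was at 64.68, 59.67 and 51.21 TPM in TH17 DMSO, 55.95, 54.49 and 54.23 TPM in TH17 Srci1 and 47.92, 45.04 and 42.79 TPM in the knockout. In Treg cells it went from 40.73, 40.6 and 43.17 TPM in DMSO to 57.54, 57.99 and 54.96 TPM with Srci1. The TH17 DMSO and Srci1 libraries overlapped, and both groups were above the knockout throughout. It fell 1.29-fold in the knockout (adjusted p = 0.00176), was 1.41-fold lower in Treg than in TH17 DMSO (adjusted p = 0.000236) and rose 1.37-fold with Srci1 in Treg cells (adjusted p = 0.000981). In TH17 cells the Srci1 difference was -0.08 (95% interval -0.25 to 0.09, adjusted p = 0.421). That value depends on the scaling: it was -0.35 (adjusted p = 0.000817) under median-of-ratios scaling and -0.20 (adjusted p = 0.0459) without ribosomal protein and mitochondrial genes. The 2 Srci1 effects differed by -0.53 (adjusted p = 0.00633).

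**Figure D1:**
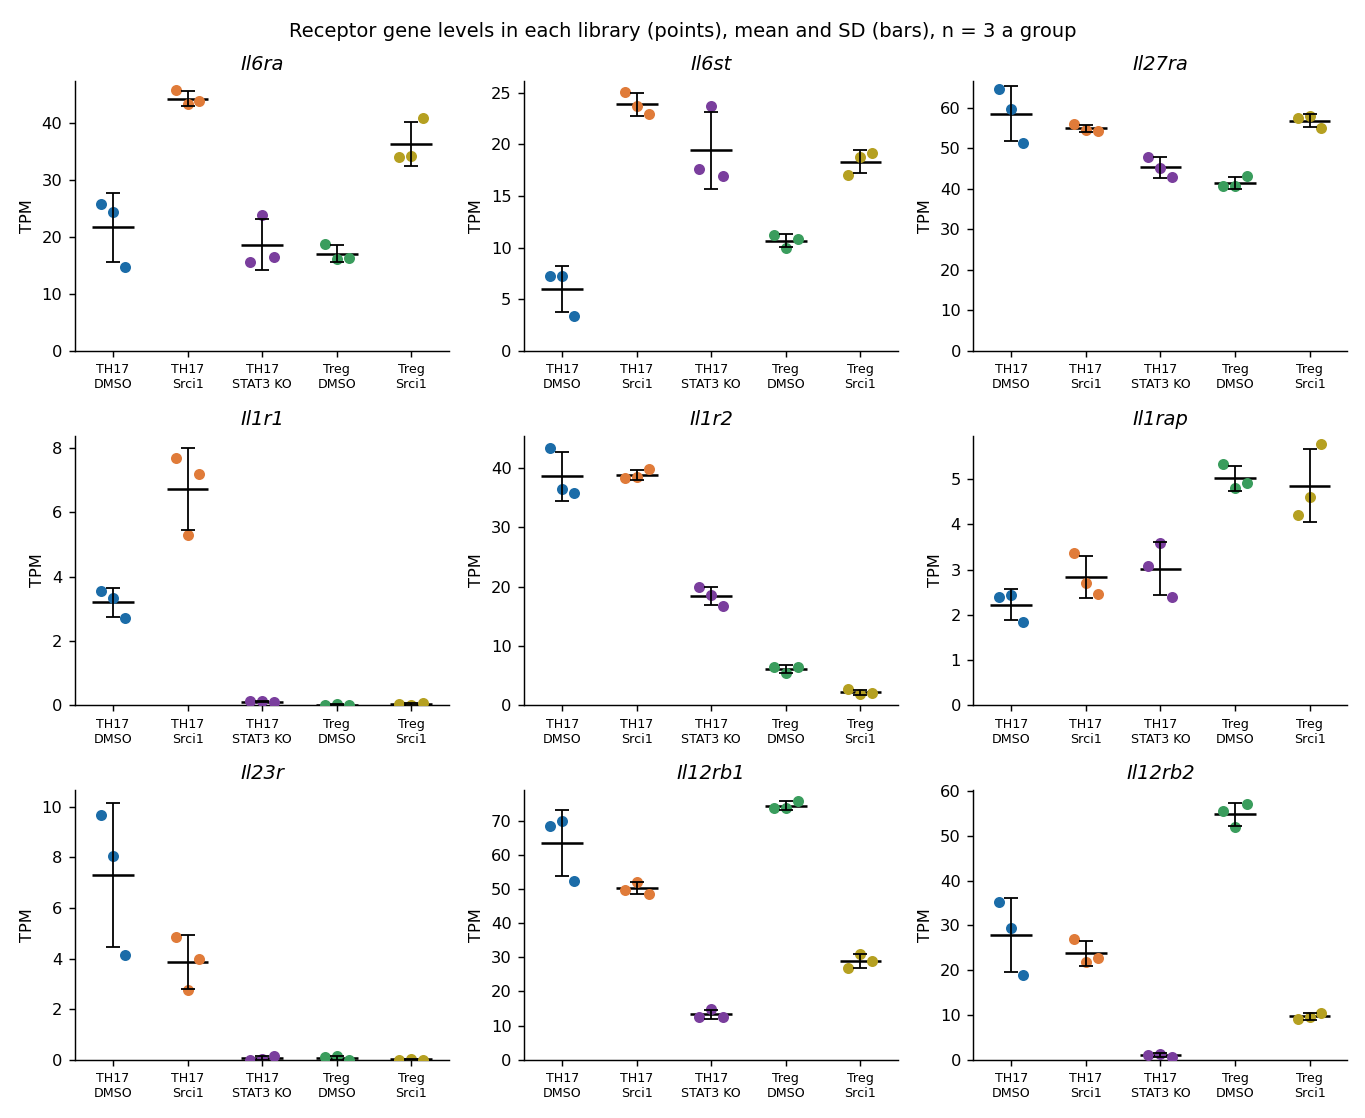
TPM of each of the 9 receptor genes in every library of the 5 groups, 1 point a library and 1 panel a gene, each panel with its own linear scale from 0, a line at the mean and error bars of 1 SD. Il6st is lowest in TH17 DMSO (5.95 ± 2.24 TPM), and Il1r1 and Il23r lie near 0 in the knockout and in both Treg groups.

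The IL-1 receptor genes separated the signalling chain, the decoy and the accessory chain. Il1r1, the signalling chain (chromosome 1, 40225080 to 40317257, plus strand), was at 3.54, 3.34 and 2.7 TPM in TH17 DMSO and at 7.68, 5.29 and 7.19 TPM in TH17 Srci1. It was at 0.13, 0.12 and 0.09 TPM in the knockout. In Treg DMSO it was at 0.02, 0.03 and 0.02 TPM and in Treg Srci1 at 0.05, 0.02 and 0.08 TPM. Thus the 2 wild-type TH17 groups were above the other 9 libraries with no overlap. With Srci1, Il1r1 was 2.10-fold higher in TH17 cells (log2 difference 0.87, adjusted p = 0.000303). It was lower in the knockout (-1.91, adjusted p = 6.42e-08) and in Treg DMSO (-2.03, adjusted p = 5.36e-08), for which no fold is given because those levels are near 0. The Srci1 effect in TH17 exceeded that in Treg cells by 0.84 (adjusted p = 0.0126), a call that was lost with a pseudocount of 0.1 (0.78, adjusted p = 0.258).

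Il1r2, the decoy (chromosome 1, 40074079 to 40125231, plus strand), had more TPM, a measure per length, than Il1r1 or Il1rap in all 3 TH17 groups. It was at 43.39, 36.51 and 35.83 TPM in TH17 DMSO and 38.27, 38.46 and 39.83 TPM in TH17 Srci1. The knockout libraries were at 19.92, 18.56 and 16.8 TPM. Treg DMSO had 6.49, 5.36 and 6.52 TPM and Treg Srci1 had 2.66, 1.92 and 2.04 TPM. The wild-type TH17 groups overlapped, and the knockout, Treg DMSO and Treg Srci1 followed in that order with no overlap. Il1r2 fell 2.09-fold in the knockout (adjusted p = 5.14e-06), was 6.30-fold lower in Treg than in TH17 DMSO (adjusted p = 1.02e-09) and fell 2.77-fold with Srci1 in Treg cells (adjusted p = 7.95e-06). With Srci1 in TH17 cells the difference was 0.02 (95% interval -0.23 to 0.26, adjusted p = 0.935), and it was -0.25 (adjusted p = 0.0937) under median-of-ratios scaling. The 2 Srci1 effects differed by 1.17 (adjusted p = 0.000311). Il1r2 is also a gene of neutrophils, whose marker Ly6g was at 80.27 to 96.46 TPM in TH17 DMSO and 18.41 to 19.07 TPM in TH17 Srci1. It was at most 0.21 TPM in the other groups. The other 4 neutrophil markers, S100a8, S100a9, Csf3r and Mpo, were at 0 in all libraries.

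Il1rap, the accessory chain (chromosome 16, 26581704 to 26730117, plus strand), ran the other way. Its values were 2.4, 2.44 and 1.84 TPM in TH17 DMSO, 3.36, 2.71 and 2.45 TPM in TH17 Srci1, and 3.09, 3.58 and 2.4 TPM in the knockout. The Treg libraries had 5.33, 4.81 and 4.91 TPM in DMSO and 4.2, 4.61 and 5.77 TPM with Srci1. All 6 Treg libraries were above all 9 TH17 libraries. Il1rap was 2.25-fold higher in Treg than in TH17 DMSO (log2 difference 0.90, adjusted p = 0.000278). Srci1 did not pass the test in TH17 (0.25, adjusted p = 0.209) or in Treg cells (-0.05, adjusted p = 0.853), and neither did the knockout (0.31, adjusted p = 0.103), although the last did without knockout replicate 3 (0.43, adjusted p = 0.0422).

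Il1r2 and Il1r1 are neighbours, 99.8 kb apart with no gene model between them, at the start of a cluster of 6 IL-1 receptor family genes that spans 478 kb. Il1rl2, a receptor chain for IL-36 that lies next to Il1r1, moved in the same directions as Il1r1 in the TH17 groups. It was at 1.37 ± 0.251 TPM in TH17 DMSO, 2.38 ± 0.311 with Srci1 and 0.653 ± 0.232 in the knockout, and at 1.53 ± 0.315 and 2.06 ± 0.242 TPM in Treg DMSO and Treg Srci1. It was 1.73-fold higher with Srci1 in TH17 cells (adjusted p = 0.0161, or 0.0787 under median-of-ratios scaling and 0.0632 under quantile normalization, and 0.064 and 0.0652 without TH17 DMSO replicate 3 or TH17 Srci1 replicate 1). It was 2.10-fold lower in the knockout (adjusted p = 0.0105, or 0.0515 without knockout replicate 1). Il18r1, a chain of the IL-18 receptor, was at 13.6 ± 3.06 TPM in TH17 DMSO, 33.2 ± 2.97 in TH17 Srci1 and 72.5 ± 14.4 in the knockout, where Il1r1 was at 0.113. It rose 5.32-fold in the knockout (adjusted p = 2e-08) and 2.09-fold with Srci1 in Treg cells (adjusted p = 0.000268). Il1rl1, the IL-33 receptor chain, was near 0 in TH17 DMSO (0.04 TPM) and at 2.57 ± 0.429 TPM with Srci1 (adjusted p = 1.4e-06). Il1rl1 reached 1 TPM only in the TH17 Srci1 libraries. It could enter the test only through the group where it is high, so this call adds no support.

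**Figure D2:**
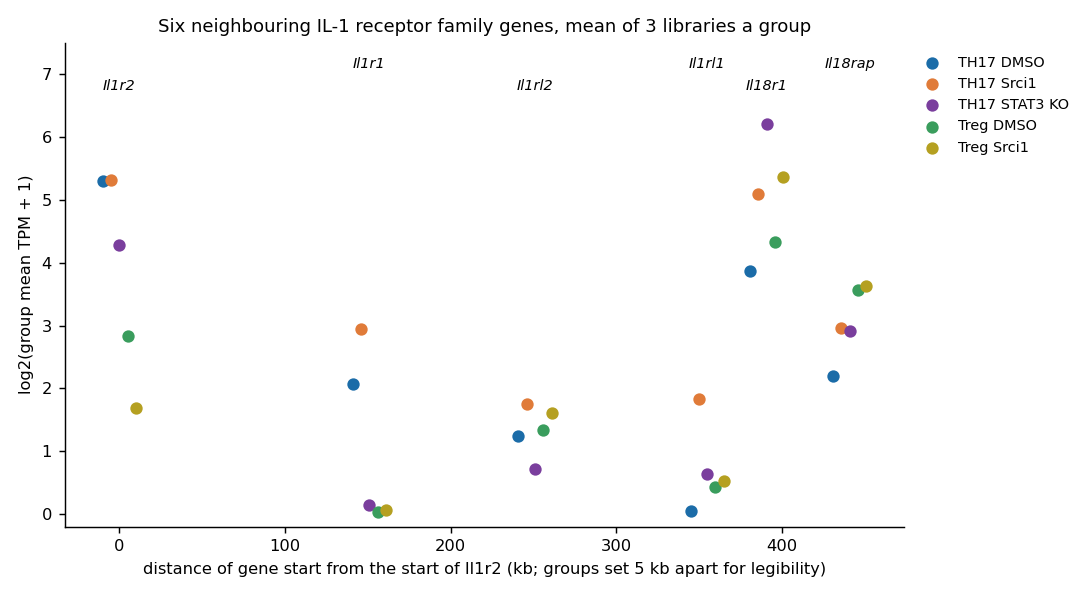
Group means of 6 neighbouring IL-1 receptor family genes, as log2(mean TPM + 1), against the distance of each gene's start from that of Il1r2 in kb (groups set 5 kb apart), with 1 colour a group. Il1r2 and Il1r1 are highest in the 2 wild-type TH17 groups, whereas Il18r1, 391 kb away, is highest in the knockout (72.5 TPM).

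The IL-12 and IL-23 receptor genes were lowest or near lowest in the knockout. Il12rb1, the shared chain (chromosome 8, 70808449 to 70821424, plus strand), was at 68.54, 69.85 and 52.38 TPM in TH17 DMSO and 49.73, 52.17 and 48.72 TPM in TH17 Srci1. In the knockout it was at 12.46, 14.83 and 12.53 TPM. Treg DMSO had 73.89, 73.65 and 75.87 TPM and Treg Srci1 had 26.89, 30.85 and 28.93 TPM. The knockout was below every other library, and Treg Srci1 was below every library of the 3 remaining groups. Il12rb1 fell 4.79-fold in the knockout (log2 difference -2.17, adjusted p = 6.97e-10) and 2.58-fold with Srci1 in Treg cells (-1.34, adjusted p = 7.2e-07). In TH17 cells the fall with Srci1 was 1.27-fold (-0.32, adjusted p = 0.0235). That call was lost when only these groups were fitted (adjusted p = 0.0936) and without TH17 DMSO replicate 1 (0.0777) or 2 (0.0972) or TH17 Srci1 replicate 1 (0.061) or 3 (0.0709), all adjusted p. Treg and TH17 DMSO differed by 0.24 (adjusted p = 0.08), which passed the test without TH17 DMSO replicate 1 (adjusted p = 0.0491) or 2 (adjusted p = 0.0437). The 2 Srci1 effects differed by 1.01 (adjusted p = 0.000415).

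Il12rb2, the IL-12-specific chain (chromosome 6, 67291318 to 67376188, minus strand), had the widest range over the groups after the genes near 0. It was at 35.26, 29.51 and 18.89 TPM in TH17 DMSO and 27, 21.83 and 22.62 TPM in TH17 Srci1, which overlap. The knockout was at 1.1, 1.39 and 0.65 TPM. Treg DMSO was highest at 55.45, 51.93 and 57.03 TPM, and Treg Srci1 was at 9.02, 9.54 and 10.46 TPM. Only the 2 wild-type TH17 groups overlapped. It fell 26.6-fold in the knockout (log2 difference -3.79, adjusted p = 1.03e-09) and 5.67-fold with Srci1 in Treg cells (-2.39, adjusted p = 8.9e-07). It was 1.97-fold higher in Treg than in TH17 DMSO (adjusted p = 0.000766). The Srci1 difference in TH17 cells was -0.18 (adjusted p = 0.473), and it depended on the setting. It was 0.0048 without TH17 DMSO replicate 1 and -0.43 (adjusted p = 0.0441) without replicate 3. Under median-of-ratios scaling it was -0.44 (adjusted p = 0.0358), and under quantile normalization -0.45 (adjusted p = 0.0255). The 2 Srci1 effects differed by 2.21 (adjusted p = 0.00011). Serbp1, an abundant gene on the opposite strand, shares 1519 of the 3794 exonic bases of Il12rb2, and the strand setting of the counting is not given in the sources used here. Serbp1 was at 687 to 1029.6 TPM in all libraries, with a mean of 711 TPM in the knockout, where Il12rb2 stayed at 0.65 to 1.39 TPM.

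Il23r, the IL-23-specific chain (chromosome 6, 67422932 to 67491855, minus strand), was present in the wild-type TH17 groups alone among the 5. It was at 9.69, 8.06 and 4.13 TPM in TH17 DMSO and 4.86, 2.75 and 3.99 TPM in TH17 Srci1. The knockout had 0, 0.03 and 0.15 TPM, Treg DMSO 0.1, 0.13 and 0 TPM, and Treg Srci1 0, 0.04 and 0 TPM. The last 9 libraries were all below the first 6. It was lower in the knockout (log2 difference -2.90, adjusted p = 1.58e-07) and in Treg DMSO (-2.88, adjusted p = 2.76e-07). With Srci1 the mean in TH17 cells was 3.87 ± 1.06 TPM against 7.29 ± 2.86 TPM in DMSO (-0.73, adjusted p = 0.0232), with 1 DMSO library inside the Srci1 range. This call was lost with a pseudocount of 0.1 (adjusted p = 0.169), with only these groups fitted (0.133), and without TH17 DMSO replicate 1 (0.0958) or 2 (0.0797) or TH17 Srci1 replicate 2 (0.0991). The 2 Srci1 effects differed by -0.64 (adjusted p = 0.224), or by -0.95 (adjusted p = 0.0222) without TH17 DMSO replicate 3.

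Il23r and Il12rb2 lie 46.7 kb apart on the same strand, with 0 protein-coding genes between them. Their levels parted in Treg DMSO, where Il12rb2 was at 54.8 ± 2.61 TPM and Il23r at 0.0767 TPM. Over the 15 libraries, Il12rb2 followed Il12rb1 (Pearson r = 0.987 on log2(TPM + 1)), which lies on another chromosome. This r describes 15 libraries that share 5 group levels, and no test was made. Markers of TH1 cells (Tbx21, Ifng, Cxcr3) summed to 4.22 to 5.94 TPM in TH17 DMSO, 6.71 to 8.97 in TH17 Srci1, 59.9 to 72.2 in the knockout, 75 to 83.6 in Treg DMSO and 25.9 to 37.6 in Treg Srci1. Il12rb2 and the sum of these markers were thus both higher in Treg DMSO than in Treg Srci1 and moved apart in the knockout. Tbx21 (45 TPM in Treg DMSO, 11.8 in Treg Srci1) and Ifng (24.9 and 8.32 TPM) followed that sum. Cxcr3 did not, at 9.58 TPM in Treg DMSO and 10.8 TPM in Treg Srci1. The part of these markers in the result was not tested.

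**Figure D3:**
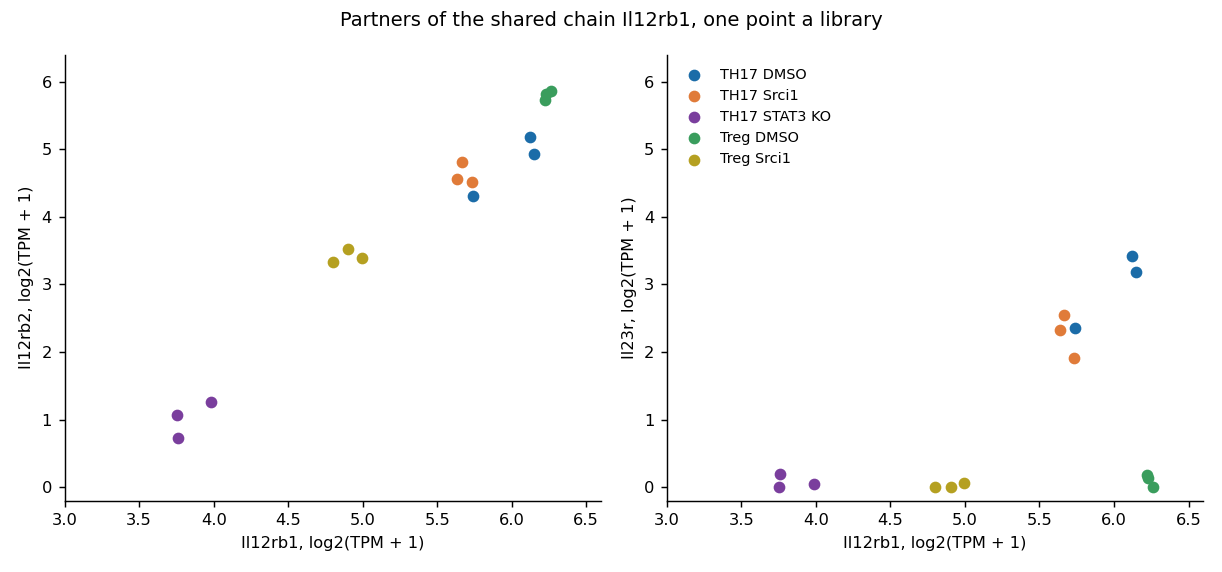
Il12rb2 (left) and Il23r (right) against their shared partner Il12rb1, each as log2(TPM + 1), 1 point a library and 1 colour a group. Il12rb2 falls with Il12rb1 from Treg DMSO to the knockout (r = 0.987 over 15 libraries), whereas Il23r is near 0 in Treg DMSO, where Il12rb1 is highest (74.5 TPM).

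Per-library ratios of paired chains on the log2(TPM + 1) scale describe the same shifts. Il6st against Il6ra went from -1.73 ± 0.11 in TH17 DMSO to -0.87 ± 0.04 with Srci1 and 0.06 ± 0.09 in the knockout, where both transcripts were about level. Decoy against signalling IL-1 receptor (Il1r2 against Il1r1) was 3.24 ± 0.11 in TH17 DMSO and 2.38 ± 0.24 with Srci1. Il12rb2 against Il12rb1 was -0.44 ± 0.05 in Treg DMSO, -1.19 ± 0.24 in TH17 DMSO and -2.81 ± 0.19 in the knockout. Il27ra against Il6st was 3.15 ± 0.37 in TH17 DMSO and 1.17 ± 0.04 with Srci1. The log2 ratio of Il12rb2 to Il23r was 1.82 ± 0.11 in TH17 DMSO and 5.70 ± 0.16 in Treg DMSO. With 3 libraries against 3 no test of these ratios was made, and those with a gene near 0 depend on the pseudocount.

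The numbers of the 9 receptor genes called are given beside the share over all genes. The 3 higher calls with Srci1 in TH17 cells and the 3 in Treg against TH17 were near that share. With Srci1 in TH17 cells 3 were called higher (Il6ra, Il6st, Il1r1), where 33.8% of all tested genes were, and 2 lower (Il23r, Il12rb1), where 7.08% were. Under median-of-ratios scaling the split over all genes was 2125 higher and 2112 lower, in place of 4324 and 906, and 4 receptor genes were lower. In the knockout 1 was higher (Il6st, background 30.9%) and 6 lower (Il27ra, Il1r1, Il1r2, Il23r, Il12rb1, Il12rb2, background 18.9%), with a median of -1.02 over the 9 and 0.13 over all genes. With Srci1 in Treg cells 3 were higher (Il6ra, Il6st, Il27ra, background 17.1%) and 3 lower (Il1r2, Il12rb1, Il12rb2, background 10%). Treg against TH17 in DMSO gave 3 higher (Il6st, Il1rap, Il12rb2, background 32.3%) and 4 lower (Il27ra, Il1r1, Il1r2, Il23r, background 12.5%). Over all genes that comparison had 4132 higher and 1605 lower, or 2701 and 2790 under median-of-ratios scaling. The comparisons of Srci1 in TH17 cells, of the knockout and of Treg with TH17 share the TH17 DMSO libraries, so their calls are not independent. Il1r1 and Il23r passed the filter only through the wild-type TH17 libraries. Their lower calls in the knockout and in Treg DMSO therefore add no support to the counts and medians of those comparisons.

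TH17 cells given Srci1 and STAT3 knockout TH17 cells were also compared directly, a difference of means without the shared TH17 DMSO libraries. These groups differ both in drug (Srci1 against DMSO) and in genotype, which this comparison alone does not separate. Each was compared with TH17 DMSO above. Of the 9 genes, 7 were higher with Srci1 than in the knockout (background 30.6%) and 0 lower (background 18.4%). Il12rb2 was 22.8-fold higher (log2 difference 3.61, adjusted p = 1.81e-09), Il12rb1 3.78-fold (1.85, adjusted p = 3.99e-09), Il6ra 2.37-fold (1.23, adjusted p = 9.32e-05) and Il1r2 2.11-fold (1.04, adjusted p = 4.7e-06). Il1r1 (2.78, adjusted p = 1.25e-09) and Il23r (2.18, adjusted p = 3.26e-06) were near 0 in the knockout. Both passed the filter only through wild-type TH17 libraries, so their calls here add no support to the count of 7. Il27ra was 1.21-fold higher (adjusted p = 0.0105), a call lost under median-of-ratios scaling (adjusted p = 0.0793), quantile normalization (0.19) and rescaling (0.104). Il6st (0.30, adjusted p = 0.237) and Il1rap (-0.06, adjusted p = 0.754) did not pass the test, although Il6st did with array weights (0.34, adjusted p = 0.045). Marker sums of B cells were 13.3 to 13.8 TPM in the knockout and at most 3.55 TPM elsewhere, with Cd79b at 8.10 TPM and Ms4a1 at 0.227 TPM. Those of macrophages and monocytes were 12.9 to 14.8 TPM in the knockout, of which Cd68 made up 10.6 TPM, and at most 7.13 TPM elsewhere. The part of these markers in the knockout results was not tested.

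**Figure D4:**
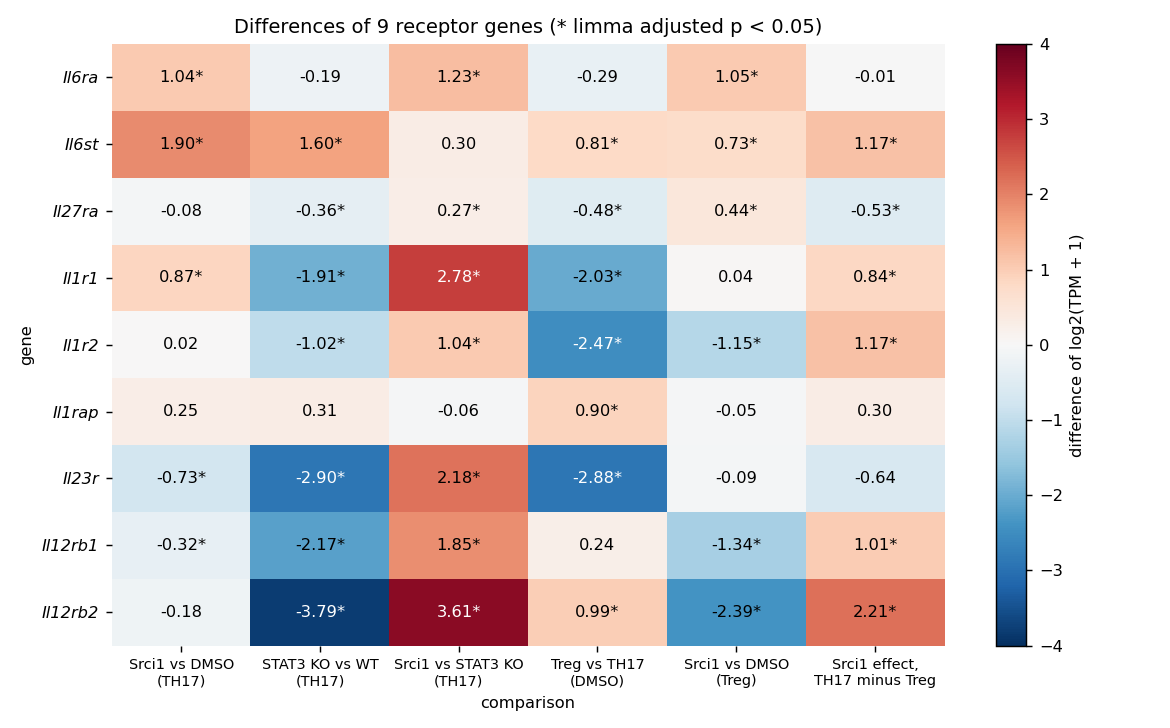
Log2 differences of the 9 receptor genes, on log2(TPM + 1), as a colour map with 1 row a gene and 1 column for each of the 6 comparisons, from blue (lower) to red (higher), with the value in each cell and an asterisk where it was called. In the knockout column Il12rb1 (-2.17) and Il12rb2 (-3.79) are blue and Il6st (1.60) is red.

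The Srci1 effects in TH17 and Treg cells were compared through their difference. It was called for 6 of the 9 genes, 5 with a higher value in TH17 cells (Il6st, Il1r1, Il1r2, Il12rb1, Il12rb2, background 11.3%) and 1 with a lower value (Il27ra, background 2.95%). Il1r1 was barely detected in Treg cells (0.0233 TPM in DMSO, 0.05 with Srci1), so its difference mainly restates the TH17 effect. The Il1r1 call was lost with a pseudocount of 0.1. Il6ra rose about alike, at 1.04 and 1.05. For Il12rb2 the effects were -0.18 in TH17 and -2.39 in Treg cells, and for Il1r2 they were 0.02 and -1.15. The gamma delta T cell markers Trdc, Tcrg-C1 and Tcrg-C2 summed to 74.6 to 86.6 TPM in Treg Srci1 and 19.2 to 24.8 TPM in Treg DMSO, with the defining gene Trdc at 0.79 and 0.517 TPM. In the TH17 groups that list summed to 5.49 to 6.63 TPM in DMSO, 11.2 to 17.3 with Srci1 and 10.1 to 12.8 in the knockout. Its part in the Treg results was not tested.

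**Figure D5:**
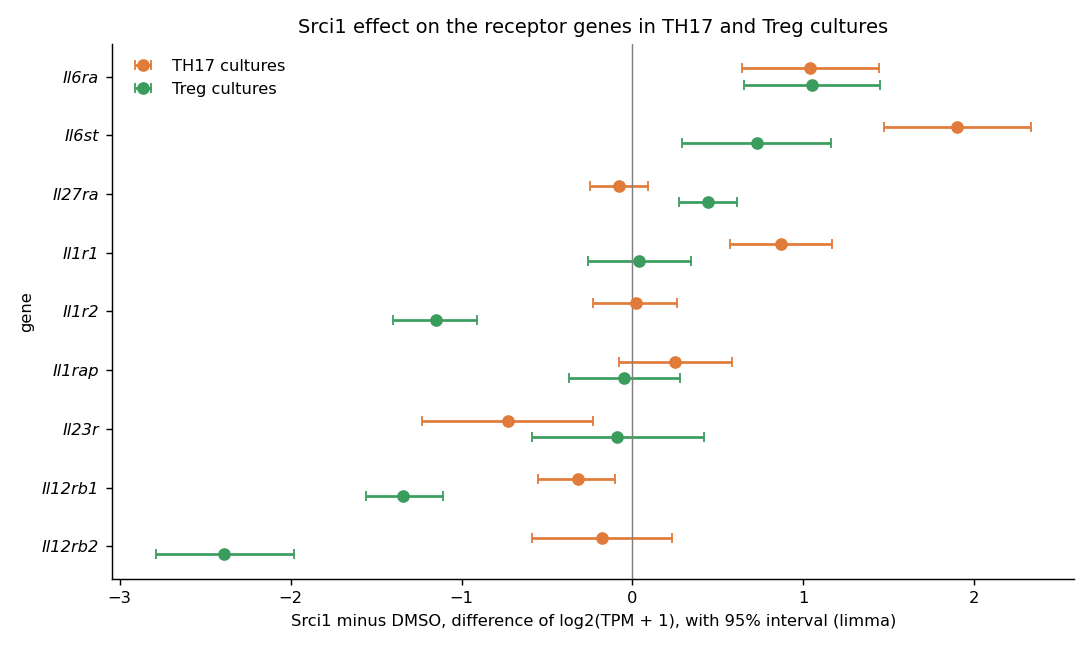
Srci1 effect on each of the 9 receptor genes in TH17 cells and in Treg cells, as differences from DMSO of log2(TPM + 1), with 95% intervals from limma. Il6ra is at nearly the same value in both (1.04 and 1.05), and Il12rb2 is at -0.18 in TH17 and -2.39 in Treg cells.

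The rest of these pathways was followed in 7 lists of ligands, related receptors and signal transducers, with 44 genes of which 31 passed the filter. Il1rl1 passed it only through TH17 Srci1, Il18 only through the knockout, and Il23a and Il33 only through wild-type DMSO libraries. Where those libraries are compared with groups in which these genes are low, their calls add no support to the counts and medians below. With Srci1 in TH17 cells 20 of the 31 were higher (background 33.8%) and 2 lower (background 7.08%), with a median of 0.45 against 0.21 over all genes. Under median-of-ratios scaling the same counts were 10 higher and 5 lower, where 2125 and 2112 of all 12800 genes were. In the knockout 9 were higher (background 30.9%) and 11 lower (background 18.9%). In Treg cells Srci1 gave 4 higher (background 17.1%) and 10 lower (background 10%). Treg against TH17 in DMSO gave 12 higher (background 32.3%) and 4 lower (background 12.5%). Under median-of-ratios scaling the counts were 8 and 6, where 2701 and 2790 of all 12800 genes were. All 8 tested IL-1 receptor transducers were called higher with Srci1 in TH17 cells on the TPM scale, where 33.8% of all genes were. Under median-of-ratios scaling 2 of the 8 were called higher, where 2125 of all 12800 genes were. It was 3 of the 8 under quantile normalization (2159 of 12800 genes) and 4 with only the compared groups (2859 of 12800 genes). The differences of all 8 transducers were above 0 in each. Among them were Tollip, an adaptor that restrains the pathway (1.69-fold, adjusted p = 6.77e-05), and the kinase Map3k7 (1.54-fold, adjusted p = 0.00731). In the knockout 1 of these 8 rose (background 30.9%) and 1 fell (background 18.9%). Under median-of-ratios scaling 1 rose and 4 fell, and the share over all genes under that scaling is not given here. The rise on the TPM scale was that of Map3k7 (adjusted p = 0.0138). That call was lost without TH17 DMSO replicate 3 (adjusted p = 0.0611) or knockout replicate 2 (0.0709). It was also lost with array weights (adjusted p = 0.0911) and with only the compared groups (0.0761).

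Of 4 tested gp130 family ligands, Lif and Osm fell in the knockout (background 18.9%) and Ebi3, a subunit of IL-27, rose (background 30.9%). Ebi3 went from 6.73 ± 1.38 TPM in TH17 DMSO to 10.3 ± 1.68 (adjusted p = 0.00597), a call lost under quantile normalization (adjusted p = 0.133) and with only the compared groups (adjusted p = 0.0549). Lif went from 121 ± 22.7 TPM in TH17 DMSO to 4.29 ± 0.939 (adjusted p = 5.73e-12) and Osm from 41.1 ± 1.72 to 12.1 ± 1.03 TPM (adjusted p = 1.68e-10). The receptors for these ligands, Lifr and Osmr, had group means of at most 0.1 TPM. Il6 had means of at most 0.153 TPM, and Il1b and Il12b were listed at 0 in all libraries. Il23a, the IL-23-specific subunit, was at 2.71 ± 0.381 TPM in TH17 DMSO and fell with Srci1 to 0.193 TPM in TH17 cells (adjusted p = 6.49e-06) and from 3.50 ± 0.445 to 0.137 TPM in Treg cells (adjusted p = 1.71e-06). Il23a passed the filter only through the wild-type DMSO libraries, where it is high, so these calls add no support. Il1rn, the IL-1 receptor antagonist, was at 3.67 ± 0.11 TPM in TH17 DMSO and 12.8 ± 1.56 TPM with Srci1 (adjusted p = 0.0133). In Treg cells Il1rn was at 1.01, 2.36 and 9.83 TPM in DMSO and at 0.22, 0.34 and 0.29 TPM with Srci1 (log2 difference -1.71, adjusted p = 0.0124, or 0.0736 with only the compared groups). Without Treg DMSO replicate 3 the difference was -1.02.

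Among 8 JAK-STAT transducers, Socs3, which encodes a feedback inhibitor that binds gp130, was at 82.5 ± 5.27 TPM in TH17 DMSO. It rose to 155 ± 3.58 TPM with Srci1 (1.88-fold, adjusted p = 4.67e-07) and fell to 10.2 ± 0.548 TPM in the knockout (8.05-fold lower, adjusted p = 5.69e-13). Il11ra1, the one tested relative of the gp130 receptors, rose 3.37-fold in the knockout (adjusted p = 0.000376), from 1.58 ± 0.75 to 5.34 ± 1.61 TPM. Sigirr, an inhibitory IL-1 receptor family member, was at 109 ± 8.88 TPM in TH17 DMSO and fell 1.92-fold in the knockout (adjusted p = 2.06e-06).

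Of 11083 named genes, those most like each receptor gene over the 15 libraries were found by Pearson r on log2(TPM + 1), as a description of points that share 5 group levels. Il1r1 was most like Mmp10 (r = 0.995) and Gdf6 (0.994), and Il23r most like Lgr4 (0.99) and Fam217b (0.989), with means of 14 TPM for Lgr4 in TH17 DMSO, 6.35 with Srci1 and at most 0.297 elsewhere. The nearest to Il12rb2 were Gpld1 (0.995) and Il12rb1 (0.987), and the nearest to Il12rb1 were Il12rb2 and Pgm1 (both 0.987). Il6st was most like Mtmr3 (0.977) and Chd3 (0.968), and Il6ra like Cds2 (0.968) and Was (0.964). For Il1r2 the nearest were Maged2 (0.981) and Acsbg1 (0.978), for Il1rap Zfp281 (0.958) and Cep85l (0.956), and for Il27ra Mpc1 (0.909) and Prkcq (0.889).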

How the data were processed

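The authors deposited 1 TPM table, with 55421 Ensembl gene IDs as rows and 15 libraries as columns. The submitters' processing notes name RSEM 1.3.3, STAR 2.7.9a and GRCm38. For the annotation release, strand setting and filters the entry is: not given in the sources used here. Overlapping genes may therefore share reads. TPM keeps no depth, so no interval for counting error was made. Symbols were matched for 55154 IDs, coordinates are GENCODE M21, 1-based, and start regions are RefSeq's.

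limma 3.58.1 (R 4.3.3), with a variance trend, was run on log2(TPM + 1) for 12800 genes that reached 1 TPM in 3 or more libraries. A model of the 5 group means was fitted to the 15 libraries (10 residual degrees of freedom), and p-values were Benjamini-Hochberg adjusted over all genes tested. The fits were tested on simulated data. The receptor genes, the 7 pathway lists and the marker lists were chosen with earlier results of these data known.

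The text names all 9 receptor genes, Stat3, up to 2 called genes of largest absolute change in each pathway list and comparison, the 2 genes of highest Pearson r with each receptor gene, and markers; some genes chosen by these rules are left out. Lifr, Osmr, Il6, Il1b, Il12b, Serbp1, Il1rl2 and Ebi3 are also given where a statement needed their values, chosen after these were seen. Alternatives tried were quantile normalization, median-of-ratios scaling, a filter of 5 TPM (10041 genes) or none (19683 genes), a pseudocount of 0.1, rescaling without 425 ribosomal protein and mitochondrial genes matched by symbol, leaving out each library, array weights, a block for the replicate number, and fitting only the groups compared.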

Additional observations from a re-analysis of the deposited data

Results flagged for a closer look

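For 6 of the 9 receptor genes the Srci1 effect differed between TH17 and Treg cells by the test of the difference itself. Each value is the TH17 effect less the Treg effect, on the log2 scale. They were 1.17 for Il6st (1.90 against 0.73) and -0.53 for Il27ra (-0.08 against 0.44). Those of the IL-1 receptor genes were 0.84 for Il1r1 (0.87 against 0.04) and 1.17 for Il1r2 (0.02 against -1.15). Il1r1 was at 0.0233 TPM in Treg DMSO and 0.05 TPM in Treg Srci1, so on this scale its difference mainly restates the TH17 effect. The Il1r1 call was lost with a pseudocount of 0.1 (adjusted p = 0.258). For Il12rb1 the difference was 1.01 (-0.32 against -1.34) and for Il12rb2 it was 2.21 (-0.18 against -2.39).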

How the results depend on the processing

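Of 1103 values of the receptor genes under the alternatives, 1039 kept their direction and side of the threshold, 17 lost their call, 25 gained one and 22 changed sign. Of 1073 values of the named pathway genes, 1012 kept both, 60 lost their call and 1 changed sign. Causes were not tested. Receptor genes called lower with Srci1 in TH17 cells were 2 as reported, 1 with a pseudocount of 0.1 or a filter of 5 TPM, 4 under median-of-ratios scaling or quantile normalization, and 0 with only the compared groups. They were 0 to 3 over the left-out libraries. In the knockout 1 to 2 were higher, and in the difference of Srci1 effects 1 to 2 were lower, over the left-out libraries. That last count was 2 under quantile normalization and 2 with array weights. Over all genes, Srci1 in TH17 cells gave 2125 higher and 2112 lower under median-of-ratios scaling, 2159 and 1973 under quantile normalization, and 2859 higher with only the compared groups. In Treg cells 1368 were higher under median-of-ratios scaling and 3452 with array weights, against 2192. Treg against TH17 gave 2701 higher and 2790 lower under median-of-ratios scaling, and 2710 and 2739 under quantile normalization. The lower calls of the difference of effects were 710 and 827 under these scalings, against 378. The median over all genes was 0.21 for Srci1 in TH17 cells and 0.18 for Treg against TH17 on the TPM scale.

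Signs changed for uncalled values. Under median-of-ratios scaling Il27ra in Treg Srci1 against TH17 Srci1 was -0.021, and Stat3 in Treg against TH17 was -0.053. Il1r2 with Srci1 in TH17 cells was -0.25 under median-of-ratios scaling, -0.23 under quantile normalization and -0.095 after rescaling. Over the left-out libraries, Il6ra in Treg DMSO against the knockout ran from -0.21 to 0.078, Il6ra in the difference of Srci1 effects ran from -0.25 to 0.13, Il6st in Treg Srci1 against the knockout ran from -0.15 to 0.078 and Il27ra in Treg Srci1 against TH17 DMSO ran from -0.13 to 0.039. Il1r2 in Srci1 against DMSO in TH17 cells ran from -0.034 to 0.10, Il1rap in Srci1 against DMSO in Treg cells ran from -0.15 to 0.036, Il1rap in TH17 Srci1 against the knockout ran from -0.18 to 0.035, Il23r in Treg DMSO against the knockout ran from -0.018 to 0.083 and Il12rb2 in Srci1 against DMSO in TH17 cells ran from -0.43 to 0.0048.

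With a pseudocount of 0.1 the log2 ratios of chains moved by more than 1 SD in 15 cases. Il6st against Il6ra was -1.89 in TH17 DMSO, and Il27ra against Il6st was 1.95 in Treg DMSO. Il1r2 against Il1r1 was 3.56 in TH17 DMSO, 6.44 in the knockout, 5.65 in Treg DMSO and 3.95 in Treg Srci1. Il23r against Il12rb1 was -6.49 in the knockout, -8.81 in Treg DMSO and -8.02 in Treg Srci1. Il12rb2 against Il12rb1 was -3.60 in the knockout. Il12rb2 against Il23r was 1.96 in TH17 DMSO, 2.62 in TH17 Srci1, 2.90 in the knockout, 8.37 in Treg DMSO and 6.45 in Treg Srci1.

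No pairing of the samples by replicate number was seen, although groups of 3 can show little of it. Deviations of same-numbered libraries correlated at -0.171 to 0.128 over 30 pairs, and those of other pairs at -0.301 to 0.254 over 60 pairs. Of 15 libraries, 5 correlated best with those of their own number. With the replicate number as a block, Srci1 in TH17 cells gave 4186 higher and 877 lower genes, against 4324 and 906, with 3 receptor genes higher and 2 lower as without it. Precision is limited by 3 libraries a group and by the unknown depth, most for Il1r1 and Il23r near 0.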
